A study of Mus musculus with 16 samples.

Results

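Broad H3K4me3 domains were examined in mouse late 2-cell embryos. A domain was defined as a peak wider than 10 kb on chromosomes 1 to 19 in the peak list deposited for H3K4me3 in water-injected embryos. This rule gave 4070 domains among the 83220 control H3K4me3 peaks of these chromosomes, and among 372612 peaks in all 4 lists. The domains were thus chosen by their measured width, and their number and width are given as a description only. The study had 16 libraries in 8 groups of 2, an immunoprecipitation group and an input group for H3K4me3 and for H3K27ac under each injection. Control embryos had been injected with H2O at the zygote stage and mutant embryos with Hdac1 mutant mRNA, and both were collected 36 h after fertilization. By these labels the control embryos received no mRNA. The mouse strain, the kind of mutation and the number of embryos were not given in the sources used here. Chromatin was digested with micrococcal nuclease and bound by antibody without a stated crosslinking step. Each of the 4 immunoprecipitation groups was described by a single list of peak positions without heights, so that no value below has a replicate error and the depth is unknown. No test between the injections could be made, and every difference is one between lists.

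H3K4me3 is written by methyltransferases of the SET1 and MLL families, mostly where transcription starts in CpG-rich sequence, and is erased by Kdm5 demethylases. Mouse oocytes carry wide H3K4me3 stretches outside promoters, which are largely replaced by promoter-centred peaks around zygotic genome activation, the onset of embryonic transcription at the 2-cell stage. In later cell types the widest domains often lie over highly transcribed genes or genes of cell identity. H3K27ac is placed by the acetyltransferases p300 and CBP and removed by histone deacetylases, of which Hdac1 is one.

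The promoters of 5 genes show the sequence under domains of different fate, and that of the liver gene Alb, chosen for comparison, shows a start site outside every control peak. Each is the stretch of 250 bases before the annotated start site, 5′ to 3′ (RefSeq, GRCm38.p6), with CpG dinucleotides in capitals. Mark2 (chr19:7341861-7342110, minus strand) lies in the widest domain, and Aff1 (chr5:103753912-103754161, plus strand) in the widest domain of which at least 50% was covered by each of the other 3 lists. Ybx2 (chr11:69936078-69936327, plus strand) lies in the domain with the most genes. Pmf1 (chr3:88410398-88410647, minus strand) lies in the widest domain without a mutant H3K4me3 peak, and Uck2 (chr1:167285128-167285377, minus strand) in a domain that had H3K27ac in control and little in mutant embryos. Alb is at chr5:90460620-90460869, plus strand.
Mark2: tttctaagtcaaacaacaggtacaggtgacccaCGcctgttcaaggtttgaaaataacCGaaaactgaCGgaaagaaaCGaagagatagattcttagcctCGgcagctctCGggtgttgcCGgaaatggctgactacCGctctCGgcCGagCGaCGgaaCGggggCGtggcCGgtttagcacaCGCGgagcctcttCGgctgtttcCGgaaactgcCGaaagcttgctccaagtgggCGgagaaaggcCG
Aff1: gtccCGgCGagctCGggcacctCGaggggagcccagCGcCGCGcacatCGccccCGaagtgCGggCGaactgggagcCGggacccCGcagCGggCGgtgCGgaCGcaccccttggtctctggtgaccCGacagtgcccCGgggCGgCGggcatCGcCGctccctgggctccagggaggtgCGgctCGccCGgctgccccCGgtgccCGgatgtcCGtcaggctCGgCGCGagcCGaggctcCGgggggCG
Ybx2: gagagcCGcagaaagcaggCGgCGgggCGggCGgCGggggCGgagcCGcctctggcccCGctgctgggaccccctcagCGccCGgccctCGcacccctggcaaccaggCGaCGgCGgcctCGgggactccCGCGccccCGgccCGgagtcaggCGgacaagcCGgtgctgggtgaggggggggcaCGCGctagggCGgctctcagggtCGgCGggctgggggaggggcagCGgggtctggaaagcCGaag
Pmf1: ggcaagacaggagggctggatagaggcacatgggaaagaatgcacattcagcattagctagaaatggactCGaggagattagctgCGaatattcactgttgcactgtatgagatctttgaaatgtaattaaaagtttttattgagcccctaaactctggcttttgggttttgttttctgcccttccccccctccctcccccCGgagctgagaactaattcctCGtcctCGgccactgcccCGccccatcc
Uck2: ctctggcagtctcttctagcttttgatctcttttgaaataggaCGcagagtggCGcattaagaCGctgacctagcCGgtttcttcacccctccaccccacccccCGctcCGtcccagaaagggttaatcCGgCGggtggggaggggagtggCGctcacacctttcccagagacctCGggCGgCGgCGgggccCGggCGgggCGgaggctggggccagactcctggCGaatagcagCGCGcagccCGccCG
Alb: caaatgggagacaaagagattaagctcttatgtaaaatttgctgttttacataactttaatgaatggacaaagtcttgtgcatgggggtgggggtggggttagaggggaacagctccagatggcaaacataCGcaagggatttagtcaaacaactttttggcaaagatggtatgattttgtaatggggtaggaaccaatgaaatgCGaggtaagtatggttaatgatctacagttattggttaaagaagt
These stretches held 22 CpG in Mark2, 35 in Aff1, 29 in Ybx2, 6 in Pmf1, 21 in Uck2 and 2 in Alb. The GC content was 55.6%, 78.8%, 79.2%, 49.6%, 66% and 39.2% in the same order. Among the 5 domain promoters, Pmf1 came closest to Alb on both measures.

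The domains spanned 65.1 Mb. They made up 4.89% of the control H3K4me3 peaks and 26.4% of the control H3K4me3 bases. Their median width was 13490 bp, with quartiles of 11402 and 17948 bp. There were 745 domains over 20 kb, 205 over 30 kb and 24 over 50 kb. The narrowest domains measured 10001, 10002 and 10005 bp, and the widest peaks left out 9997, 9996 and 9996 bp. Peaks on either side of the limit had similar values. The 386 domains within 0.5 kb above it were covered for 70.1% of their bases by mutant H3K4me3, 69.7% by control H3K27ac and 49.9% by mutant H3K27ac. The 465 peaks within 0.5 kb below it were covered for 69.9%, 64.9% and 47.3%.

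The widest domain covered 82762 bp of chromosome 19 (7335775 to 7418536), with the starts of Mark2, which encodes a microtubule affinity-regulating kinase, and of 2700081O15Rik, and an end of Spindoc. Mutant H3K4me3 covered 76.6% of it in 6 peaks. Control H3K27ac covered 94.9% in 5 peaks and mutant H3K27ac 48.6% in 6. The next was a domain of 75478 bp at the start of Aff1 on chromosome 5 (103691659 to 103767136), a gene of the transcription elongation machinery. It was covered for 96.6% by mutant H3K4me3, for 77.2% by control H3K27ac in 3 peaks and for 53.9% by mutant H3K27ac in 9. One of 72708 bp on chromosome 11 (69912873 to 69985580) held ends of 8 protein-coding genes, more than any other domain. Among them were Eif5a, a translation factor, Gps2, a corepressor subunit, and Ybx2, a germ-cell RNA-binding protein. Mutant H3K4me3 covered 96.1% of this domain and control H3K27ac 88.8%, against 23.8% for mutant H3K27ac. A domain of 69834 bp at Ptma on chromosome 1 (86478910 to 86548743), which encodes the abundant nuclear protein prothymosin alpha, was covered for 95.6% and 95.8% by the same lists and kept 82.2% under mutant H3K27ac, in 10 peaks. The fifth, 68464 bp on chromosome 8 (106092331 to 106160794) over the start of Pla2g15 and the ends of Nfatc3 and Esrp2, lay wholly inside a control H3K27ac peak of 102512 bp. Mutant embryos had 9 H3K27ac peaks there, the widest 12913 bp, over 51% of the domain. Domains with 7 gene ends came next in gene number. That from Lrrn4cl to Ganab on chromosome 19 (8849867 to 8900938) had 90.4% under mutant H3K4me3, 100% under control H3K27ac and 76.7% under mutant H3K27ac. That from Acot8 to Pltp on chromosome 2 (164819578 to 164862658) had 92.0%, 91.6% and 77.3%. In the 5 widest domains the covered part was lower for mutant than for control H3K27ac. Mutant H3K4me3 covered at least 76.6% of each, while control H3K4me3 covered 100% of each by definition.

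**Figure D1:**
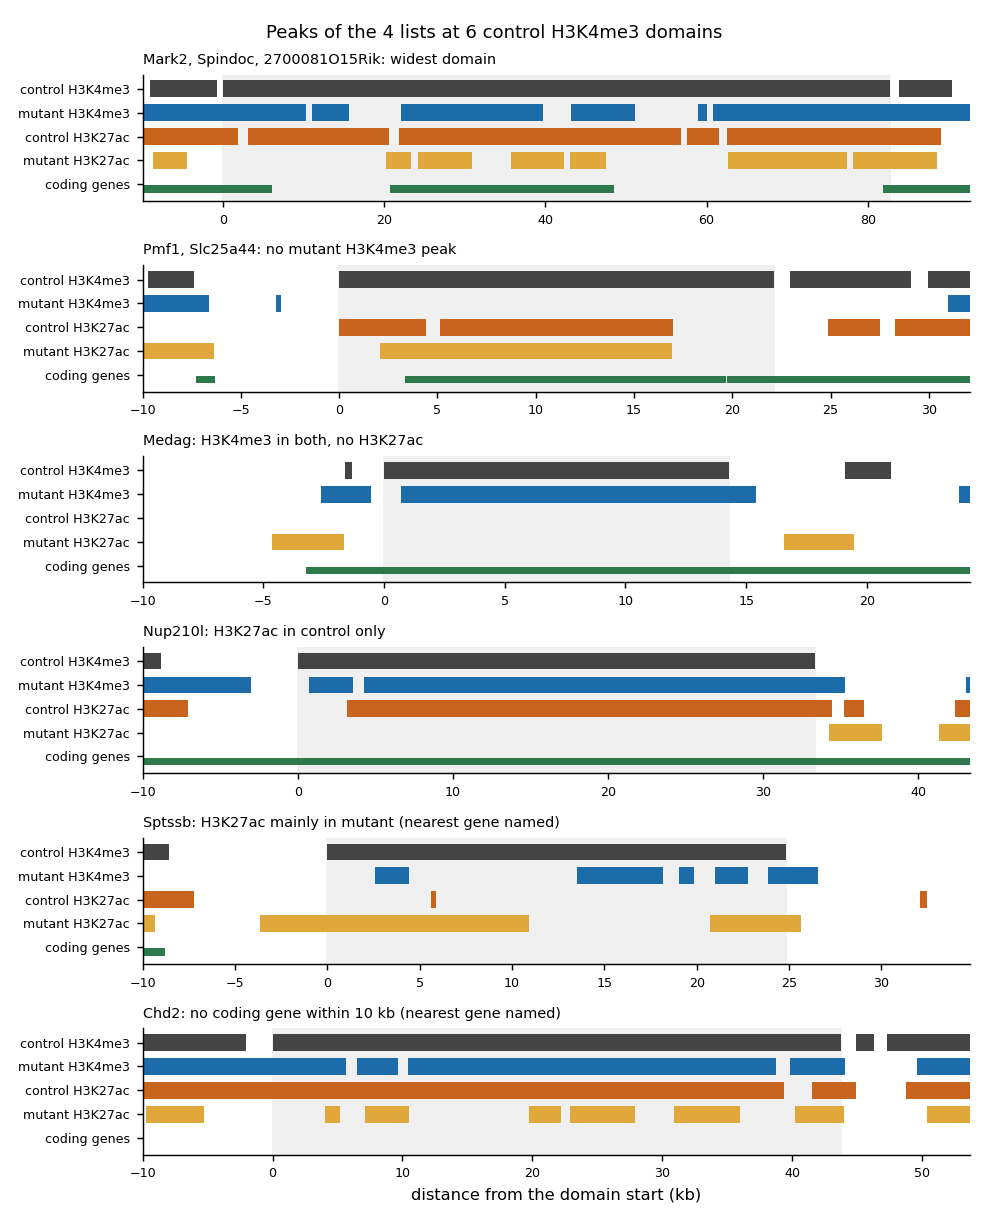
Peaks of the 4 lists (coloured bars) and protein-coding genes (thin green bars) at 6 domains, against the distance in kb from the start of the domain, with the domain shaded. The domain at Mark2 is 82762 bp wide, the domain at Pmf1 holds no mutant H3K4me3 peak, and the domain in Nup210l is covered for 90.4% by control and 0% by mutant H3K27ac.

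Most of the domain sequence carried H3K4me3 in mutant embryos as well. Mutant H3K4me3 peaks covered 76.9% of the domain bases, while they covered 11.1% of the length of chromosomes 1 to 19. At least 50% of the domain was covered in 3456 of 4070 domains (84.9%). Among all control H3K4me3 peaks this held for 40.9%. The covered part grew with the width of the domain, from 71.5% of bases in domains of 10 to 12 kb to 83.1% in those over 30 kb. Below 10 kb it was 64.4% in control peaks of 5 to 10 kb and 19.1% in peaks of up to 1 kb. No mutant H3K4me3 peak at all was found over 111 domains, or 2.73% (95% Wilson interval 2.27 to 3.27, counting error only), against 51.3% of all control peaks. The share among control peaks of 5 to 10 kb was 15.1%. A wider peak has more room to meet a peak of another list, and the part of this in the counts was not tested.

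Each domain is by its definition 1 unbroken control peak, so the number of mutant H3K4me3 peaks over it is given only as a description. A single mutant peak lay over 1821 domains, 2 lay over 1391 and 3 or more over 747. The widest mutant peak over a domain was itself wider than 10 kb in 2524 domains (62.0%, interval 60.5 to 63.5), against 11.9% of all control peaks and 26.7% of those of 5 to 10 kb. It measured 5 to 10 kb in 1092 domains and 5 kb or less in 343. It exceeded the domain in width in 1392 cases and was narrower than 50% of its width in 842. Kdm5b, which encodes an H3K4 demethylase and was picked after its values had been seen, had a domain of 32321 bp wholly inside a mutant peak of 33245 bp. At Mbd3l2, one of a family of similar genes to which reads are hard to assign, 4 mutant peaks of at most 4666 bp lay over a domain of 19766 bp.

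**Figure D2:**
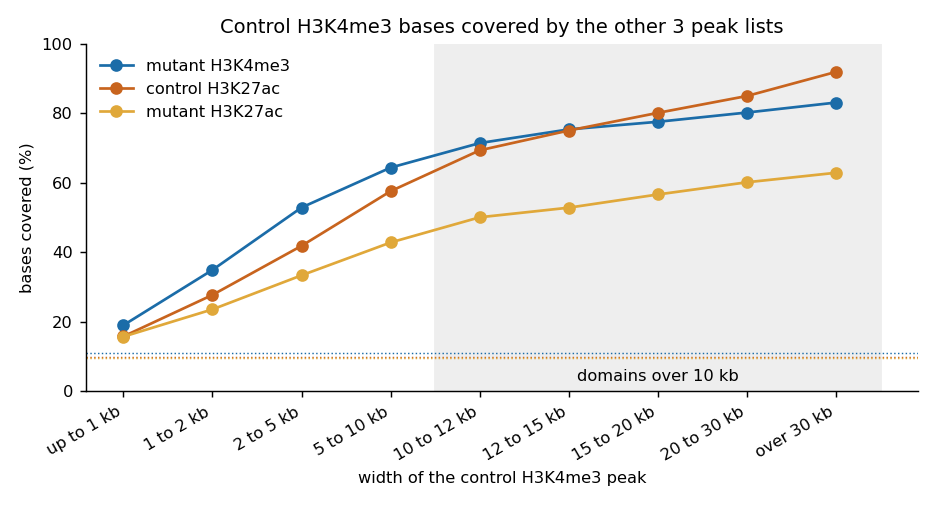
Share of the bases of control H3K4me3 peaks covered by mutant H3K4me3, control H3K27ac and mutant H3K27ac peaks (vertical axis, %), by width of the control peak (horizontal axis), with the domains shaded. Dotted lines give the share of chromosomes 1 to 19 covered by each list; all 3 curves are highest in the class over 30 kb, where they reach 83.1%, 92.0% and 62.9%.

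The ends of the domains were less often shared than their centres. With each domain divided into 10 equal bins, the outermost bin at either end had lower cover. There mutant H3K4me3 covered 67.1% and 67.6% of bases, and in the 2 central bins 81.2% and 81.4%. Of the 7918 ends of domains with a mutant peak, the outermost mutant peak reached beyond the domain at 58.2% and ended inside it at 41.7%. The median distance was 2333 bp beyond and 1461 bp inside. At 33.7% of ends the distance was at most 1 kb. Mutant peaks reached beyond both ends in 1362 domains and stopped short of both in 709. Domains therefore did not share one direction of change in extent.

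**Figure D3:**
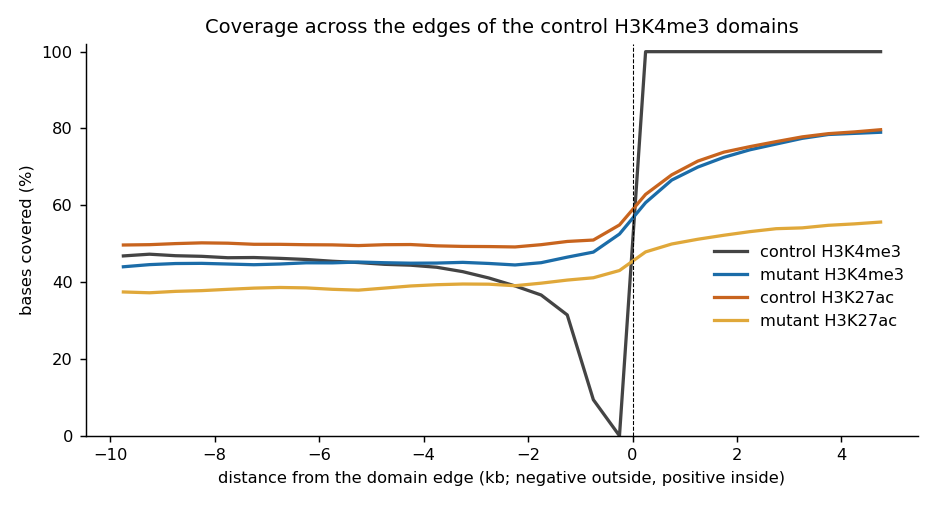
Share of bases covered by each list (vertical axis, %) in bins of 500 bp against the distance from the domain edge in kb (negative outside, positive inside), over all 8140 edges. Mutant H3K4me3 changes from 52.5% just outside to 60.7% just inside the edge and mutant H3K27ac from 43.0% to 47.9%, while control H3K4me3 is 0% and 100% there by definition.

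Control H3K27ac lay over most of the domain sequence. It covered 79.0% of domain bases, against 9.83% of the chromosomes, and 3360 domains (82.6%) were covered for at least 50%. The share of all control H3K4me3 peaks covered to this extent was 33.3%. A control H3K27ac peak wider than 10 kb lay over 2800 domains (68.8%), against 13.7% of all control H3K4me3 peaks. In domains over 30 kb control H3K27ac covered 92.0% of bases. Only 218 domains had no control H3K27ac peak, against 59.2% of all control H3K4me3 peaks, and 147 of them were 10 to 12 kb wide. For mutant H3K27ac 292 domains (7.17%) had no peak, against 59% of all control H3K4me3 peaks.

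Mutant H3K27ac covered less of the domains, 55.8% of bases, although the H3K27ac lists had nearly equal length on these chromosomes (241.8 Mb in control, 237.2 Mb in mutant). Inside the domains the mutant list held 36.3 Mb and the control list 51.4 Mb, a ratio of 0.706. Outside them it held 200.8 Mb and the control list 190.4 Mb, a ratio of 1.06. For H3K4me3, the mark that chose the domains in control embryos, the same ratios of mutant to control were 0.769 inside and 1.23 outside. At least 50% was covered in 2386 domains (58.6%), against 27.2% of all control H3K4me3 peaks. The H3K27ac bases in a domain were fewer in mutant in 3085 domains (75.8%), more in 887 and equal in 98. Among all control H3K4me3 peaks 30% had fewer and 21.2% more, the remainder mostly having no H3K27ac in either list. In peaks of 5 to 10 kb the shares were 55.3% and 30.1%. A mutant H3K27ac peak wider than 10 kb lay over 1200 domains (29.5%), against 5.51% of all control H3K4me3 peaks. The median difference over the domains was -20.5 percentage points (quartiles -44.4 and -0.66), with medians of 89.7% covered in control and 57.8% in mutant.

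Counted by base, 47.9% of the domain sequence had H3K27ac in both conditions, 31.1% in control only, 7.87% in mutant only and 13.2% in neither. Of the control H3K27ac bases in domains, 60.7% were also in the mutant list. Bases with H3K4me3 and H3K27ac in both conditions made up 39.0% of domain sequence, and those with both H3K4me3 lists and control H3K27ac alone 23.5%. In control peaks of 5 to 10 kb these values were 21.2% and 16.7%. The mean number of H3K27ac peaks over a domain was 2.21 in mutant and 1.5 in control embryos. The mutant list also held more H3K27ac peaks on chromosomes 1 to 19 as a whole, 114737 against 73320. The smallest gap between peaks was 681 bp in the control and 602 bp in the mutant H3K27ac list, and its part in these counts was not tested. With neighbouring peaks joined across 1 kb in every list, the covered part was 75.9% for control and 56.9% for mutant H3K27ac.

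**Figure D4:**
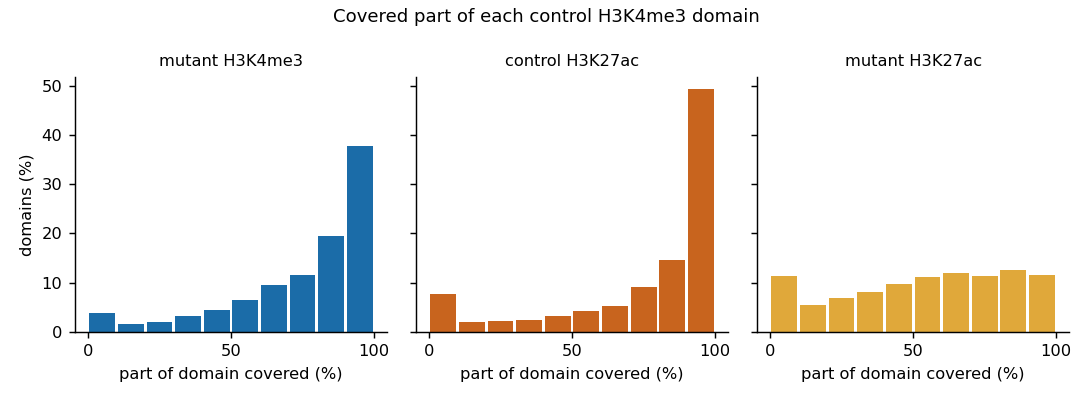
Share of the 4070 domains (vertical axis, %) by the part of the domain covered by each of the 3 other lists (horizontal axis, in steps of 10 percentage points). Control H3K27ac covers 90% or more of 49.3% of domains and mutant H3K4me3 of 37.8%, while mutant H3K27ac is spread over the whole range and does so in 11.5%.

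The domains were chosen in control embryos, which also supplied the control H3K27ac list. The same width rule was therefore applied to the mutant H3K4me3 list for comparison. Its 5497 peaks over 10 kb were covered for 59.2% by control and 49.0% by mutant H3K27ac, a ratio of 0.827 against 0.706 in the control domains. Mutant H3K27ac covered less than control H3K27ac in both sets, and the gap was smaller where the mutant list chose the domains. Within the control domains the ratio was 0.738 in the 1540 domains covered for at least 90% by mutant H3K4me3 and 0.645 in the 614 covered for less than 50%.

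Domains that differed most in H3K27ac between the lists were described separately. Those with at least 50% covered in control and less than 10% in mutant numbered 253 (6.22%), against 11.7% of all control H3K4me3 peaks. The opposite, less than 10% in control and at least 50% in mutant, was seen in 67 domains (1.65%), against 9.08%. Both shares were thus below those of the whole list. The first pattern was possible in 3360 domains and in 27740 of all control peaks, of which 9746 showed it. The second was possible in 314 domains and in at least 49225 of all control peaks, of which 7553 showed it. Counted against these numbers, the first was rarer in the domains than in the whole list and the second was more frequent. Of the 253 domains, 208 were covered for at least 50% by mutant H3K4me3, with a median of 81.8%, close to the 84.9% and the median of 84.5% of all domains. The widest was a domain of 33383 bp within Nup210l on chromosome 3 (90131502 to 90164884), a gene of a nuclear pore protein family. Mutant H3K4me3 covered 95.7% of it, control H3K27ac 90.4% and mutant H3K27ac none. The next lay 17689 bp from Usp7, a deubiquitinase gene, on chromosome 16 (8774756 to 8804761), with 97.3% and 1.61% under control and mutant H3K27ac. The domain over the start of Uck2, a uridine-cytidine kinase gene whose promoter is printed above, measured 29221 bp (chromosome 1, 167258832 to 167288052) and had 65.7% and 8.71%.

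Among the 67 domains with the opposite pattern, the widest measured 24825 bp and lay 8781 bp from Sptssb, a gene of sphingolipid synthesis, on chromosome 3 (69870144 to 69894968). Its H3K27ac cover was 1.20% in control and 60.4% in mutant, and mutant H3K4me3 covered 40.5%. Another of 18186 bp lay 1555 bp from Zfp213 on chromosome 17 (23537027 to 23555212), with 3.26% and 58.3%, wholly inside a mutant H3K4me3 peak. Of these 67 domains 29 (43.3%) had no protein-coding gene over them, compared with 22.1% of all domains.

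Domains without mutant H3K4me3 had a median width of 11471 bp, below the 13490 bp of all domains, and 21 of these 111 (18.9%) held an annotated start site against 48.0% of all domains. Control H3K27ac covered a median of 92.2% of them, close to the 89.7% of all domains. The widest, 22119 bp over Pmf1, a kinetochore protein gene, and Slc25a44 on chromosome 3 (88390765 to 88412883), had 73.5% under control and 67.2% under mutant H3K27ac. The next spanned 18855 bp at Prpsap2 and the autophagy kinase gene Ulk2 on chromosome 11 (61758529 to 61777383), with 100% and 38.6%. H3K27ac was missing from both lists in 63 domains (1.55%), against 44.6% of all control H3K4me3 peaks. Mutant H3K4me3 covered at least 90% in 18 of these 63, while it did so in 37.8% of all domains, the widest of the 18 being a domain of 14289 bp within Medag on chromosome 5 (149370887 to 149385175). The other extreme, at least 50% covered by all 3 other lists, comprised 1911 domains (47.0%), against 9.98% of all control H3K4me3 peaks.

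The genes of the domains were taken from RefSeq. A protein-coding gene had an end, either start or finish, inside 2514 domains (61.8%), against 16.1% of all control peaks and 36.7% of those of 5 to 10 kb. A wider peak spans a gene end more easily. There were 1517 domains with ends of 1 gene, 760 of 2, 175 of 3 and 62 of 4 or more. Conversely, 3588 of 20661 protein-coding genes (17.4%) had an end in a domain, and 739 lay wholly inside one. A further 561 domains (13.8%) lay within a gene body without any end or annotated start. A coding gene lay over 77.9% of domains and 54.2% of all control peaks, with an end inside 61.8% and 16.1%. No protein-coding gene lay over 901 domains (22.1%), against 45.8% of all control peaks. Of these 901 domains, 488 were more than 10 kb from such a gene. These were 12% of all domains, against 34% of all control peaks and 21.0% of those of 5 to 10 kb. The widest of these, 43715 bp on chromosome 7 (73616119 to 73659833), lay 74373 bp from Chd2, a chromatin remodeller gene. Mutant H3K4me3 covered 93.9% of it, control H3K27ac 95.1% and mutant H3K27ac 47.1%. Next came 43689 bp on chromosome 11 (61599203 to 61642891), 10430 bp from Grap, and 37052 bp on chromosome 7 (75768138 to 75805189), 13529 bp from Akap13. In these, unlike the domain near Chd2, mutant H3K27ac covered more than control H3K27ac, 97.8% against 76.1% near Grap and 96.4% against 94.1% near Akap13.

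Annotated start sites were available for 16456 protein-coding genes. Of these, 2536 (15.4%) had a start in a domain, and 1952 domains (48.0%) held at least 1 start, against 12.4% of all control peaks. Domains with a start were covered for 81.6% by mutant H3K4me3, those with no start for 71.7%, and those within gene bodies only for 63.6%. For control H3K27ac the values were 82.2%, 75.3% and 79.9%, and for mutant H3K27ac 55.9%, 55.6% and 55.0%. The difference between domains with and without a start was thus seen in mutant H3K4me3 and control H3K27ac and was smallest in mutant H3K27ac. Domains with a start were also wider, with a median of 14738.5 bp against 12713.5 bp without one and 12238 bp within gene bodies only. The part of width in these differences was not tested. Of the domains with no start, 656 held a coding gene end and were covered for 77.5% by mutant H3K4me3. The 83 domains with starts of 3 or more genes, of a median width of 22308 bp, were covered for 86.5% by mutant H3K4me3.

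Among 941 domains with a single annotated start and no other gene end, the domain extended a median of 7371 bp upstream and 7308 bp downstream of the start. The longer part was downstream in 472 domains and upstream in 468. Mutant H3K4me3 covered the start site itself in 93.5% of these domains, control H3K27ac in 84.1% and mutant H3K27ac in 53.5%. In the first 500 bp downstream of the start, mutant H3K4me3 covered 94.5% of bases and control H3K27ac 84.3%. The cover was 69.4% and 71.2% at 4.5 to 5 kb upstream. Control H3K4me3 itself fell from 99.8% to 77.5% over this distance, so the upstream places lay partly outside the domains. Mutant H3K27ac changed less over this distance, with 55.4% and 50.4% at the same places.

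Promoter sequences in the domains had values close to those in control peaks of 2 to 5 kb, and higher CpG content than those in narrower peaks. In windows of 300 bases, 250 before and 50 from the start on, the 3044 start sites in domains had a median of 21 CpG, a GC content of 60.7% and an observed-to-expected CpG ratio of 0.78. Start sites in control peaks of 2 to 5 kb had 21, 62.3% and 0.76, and those in peaks of up to 2 kb had 17, 60.7% and 0.67. Those outside every control peak had 3, 46.3% and 0.18. A ratio of at least 0.6 with a GC content of at least 50% was found for 69.3% of windows in domains, 70.3% in peaks of 5 to 10 kb, 69.1% in peaks of 2 to 5 kb, 55.8% in peaks of up to 2 kb, 2.51% outside peaks and 46.5% of all 20084 windows. Within the domains the share was 69.8% at widths of 10 to 20 kb and 68.0% over 20 kb.

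Motifs were searched by their letters on both strands of the same windows, where overlapping matches of different motifs each counted. The GC box (GGGCGG) was in 64.0% of windows in domains, 66.9% in peaks of 2 to 5 kb and 47.0% of all windows. The TATA box (TATAAA) was in 6.70%, 6.25% and 12.7%, and the CCAAT box (CCAAT) in 37.8%, 36.7% and 38.1%. An NRF1-like core (TGCGCA) was in 15.5%, 13.5% and 9.81%, and an ETS-like motif (CCGGAAG) in 18.1%, 16.5% and 11.9%. A YY1-like motif (GATGGCG) was in 7.0%, 5.53% and 4.37%, an E box (CACGTG) in 10.8%, 9.54% and 7.89%, and a CRE-like core (TGACGT) in 11.8%, 10.5% and 8.59%. The nuclear receptor core (AAGGTCA) was in 3.25%, 2.74% and 4.03%, and the core GGATTA, known for OTX and OBOX factors, in 5.95%, 5.36% and 6.41%. The windows in domains thus differed from all windows mostly as the windows of peaks of 2 to 5 kb did. In the 207 windows within domains that had H3K27ac in control and little in mutant embryos, the GC box was in 71.0%, the CCAAT box in 44.0%, the ETS-like motif in 26.6%, the NRF1-like core in 20.3%, the E box in 13.0%, the YY1-like motif in 7.25% and the nuclear receptor core in 4.35%. These were above the shares in all domains, whereas the CRE-like core (10.1%), the TATA box (5.80%) and the core GGATTA (4.83%) were below them. The YY1-like share was close to the 7.0% of all domains. The 207 windows belonged to 172 genes. The YY1-like motif, the nuclear receptor core, the TATA box and the core GGATTA were in only 15, 9, 12 and 10 of them. None of these differences was tested.

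Genes of 10 lists were then looked up in the domains. The share of genes with an end in a domain is to be read against the 17.4% of all protein-coding genes. Ribosomal protein genes had the highest share, 31 of 43 (72.1%, interval 57.3 to 83.3). All 43 had an end in some control H3K4me3 peak, as did 68.7% of all coding genes. By start sites alone, 22 of 32 had a start in a domain, against 15.4% of all genes. Rpl19, which encodes a protein of the large ribosomal subunit, had a domain of 50511 bp. It had 97.0%, 81.4% and 65.5% under mutant H3K4me3, control H3K27ac and mutant H3K27ac. Over the 31 domains the medians were 82.8%, 94.4% and 70.8%, with H3K27ac bases fewer in mutant in 29, against 75.8% of all domains. All 31 were covered for at least 50% by control H3K27ac and 26 by mutant H3K27ac, against 82.6% and 58.6% of all domains. Their median width was 18055 bp, and in domains of 15 to 20 kb the shares were 87.8% and 60.9%. Ends of other coding genes lay in 25 of these 31 domains, in 15 of 20 for ribosome biogenesis, 10 of 18 for splicing, 7 of 11 for the proteasome and 15 of 18 for chromatin regulators, so such domains cannot be assigned to the listed gene alone.

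**Figure D5:**
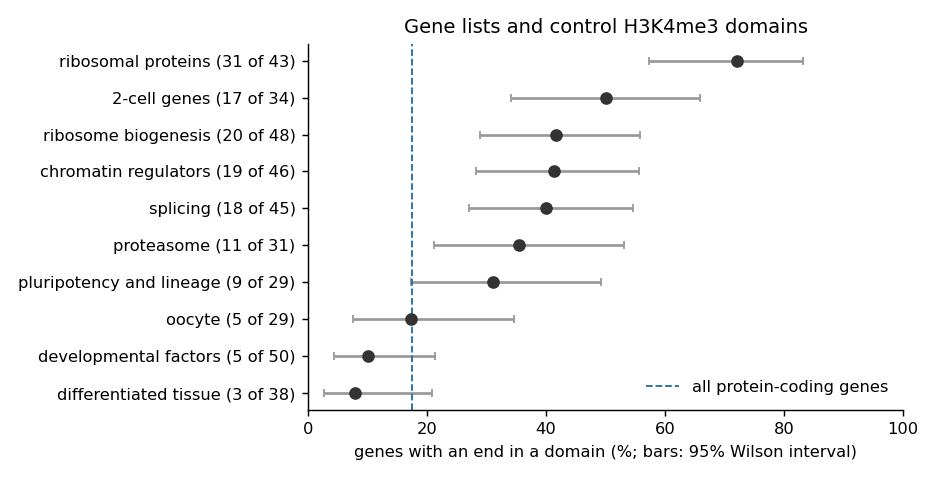
Share of the genes of each list with an end in a domain (points, %), with 95% Wilson intervals that cover counting error only; the numbers of genes stand beside the names. The dashed line marks the 17.4% of all protein-coding genes, and ribosomal protein genes lie at 72.1%.

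The other lists of genes at work in most cells had shares between 35.5% and 41.7%. Ribosome biogenesis genes had 20 of 48, led by Npm1, Wdr43 and Nolc1, which act in nucleolar assembly of ribosomes. Npm1 had a domain of 38576 bp with 70.1%, 71.9% and 62.3% under mutant H3K4me3, control H3K27ac and mutant H3K27ac. Wdr43 had one of 38446 bp with 76.6%, 83.8% and 44.5%, and Nolc1 one of 36202 bp with 78.3%, 97.2% and 58.4%. For splicing the count was 18 of 45, with 54438 bp at Hnrnpa1, 29042 bp at Hnrnpc and 22639 bp at Hnrnpl, all coding for RNA-binding hnRNP proteins. The Hnrnpa1 domain had 91.4%, 93.4% and 32.2% in the same order of lists. Proteasome genes had 11 of 31, with 45166 bp at Psmd2, 43748 bp at Psmd12 and 23071 bp at Psmd11, all subunits of the regulatory particle. The Psmd12 domain was wholly inside 1 mutant H3K4me3 peak, and its H3K27ac cover was 96.5% in control and 21.7% in mutant. Mutant H3K27ac covered at least 50% of 9 of 20 ribosome biogenesis domains, 10 of 18 for splicing and 7 of 11 for the proteasome. This held for 58.6% of all domains. At least 50% in control and less than 10% in mutant was seen in 3, 2 and 1 of them, against 6.22% of all domains.

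Chromatin regulators had 19 of 46 genes with an end in a domain (41.3%), in 18 domains of a median width of 21859 bp. They included 46243 bp at Kat6b, an acetyltransferase gene, and 32422 bp at Hdac1 itself. Kat6b had 93.7% under mutant H3K4me3, 89.7% under control H3K27ac and 70.5% under mutant H3K27ac. At Hdac1 (chromosome 4, domain 129528926 to 129561347) the domain held the gene end of higher coordinate and had 91.9%, 88.8% and 52.9%. All 18 domains were covered for at least 50% by mutant H3K4me3 and by control H3K27ac, and 13 by mutant H3K27ac. The shares of all domains were 84.9%, 82.6% and 58.6%. In domains of 20 to 30 kb, the width class of this median, they were 90.7%, 93.3% and 70.6%.

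Of 34 genes known to be transcribed at the 2-cell stage, 17 had an end in a domain (50%), and all 17 domains were covered for at least 50% by control H3K27ac, against 82.6% of all domains. Dppa2, a regulator of 2-cell transcription, had a domain of 38632 bp (chromosome 16, 48302905 to 48341536) with 68.9% under mutant H3K4me3 in 3 peaks, 100% under control H3K27ac in 1 and 76.4% under mutant H3K27ac in 9. Its neighbour Dppa4, named after its values had been seen, had one of 18330 bp with 69.5%, 79.3% and 63.2%. Zfp296, a zinc finger gene, had 32141 bp with 93.0%, 96.4% and 67.9%. The domains at Smarca5 and Klf17, named after their values had been seen, had 100% under control H3K27ac. Mutant H3K27ac covered 0% and 1.77% of them. H3K27ac bases were fewer in mutant in 14 of the 17 domains, against 75.8% of all domains. Over the 17 domains the median cover by mutant H3K4me3 was 69.5%, below the 84.5% of all domains. The median by mutant H3K27ac was 57.5%, close to the 57.8% of all domains. Of these genes, 27 of 34 (79.4%) had an end in some control H3K4me3 peak, against 68.7% of all coding genes. By start sites alone, 10 of 24 had a start in a domain, against 15.4% of all genes. Zscan4, Obox, Tdpoz, Tcstv and Usp17l genes belong to families of near-identical copies, so the presence or absence of a domain at one copy is uncertain.

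Factors of the first cell lineages had 9 of 29 genes in domains (31.0%, interval 17.3 to 49.2), and 1 of 29 in domains over 20 kb, against 5.22% of all coding genes. Tead4, which drives the trophectoderm programme, had a domain of 25630 bp with 90.9%, 63.7% and 47.0% under mutant H3K4me3, control H3K27ac and mutant H3K27ac. Etv5 had 19677 bp with 37.6%, 100% and 80.1%, and Klf2 18560 bp with 47.1%, 100% and 42.0%. Pou5f1 and Nanog, genes of pluripotency factors named here after their values had been seen, had domains of 12174 and 10010 bp. That at Pou5f1 was wholly covered by mutant H3K4me3, and its H3K27ac cover was 95% in control and 17.9% in mutant. That at Nanog had 38.6%, 69.3% and 17.9% in the usual order. Mutant H3K27ac covered at least 50% of 3 of the 9 domains, against 58.6% of all domains. H3K27ac bases were fewer in mutant in 6 of the 9, against 75.8% of all domains. Of the others, also named after their values had been seen, Sall4 had 100% in both conditions, Tfap2a 0% in control and 35.6% in mutant, and Pdgfra 0% and 19.6%. Oocyte genes had 5 of 29 in domains (17.2%), close to all genes. Their domains lay at Dppa3, Gdf9, Zar1l, Zp3 and Ooep, the last 2 named after their values had been seen, of which Gdf9 encodes a growth factor of the oocyte and Zp3 a protein of the zona pellucida. The first 3 measured 25873, 20615 and 19050 bp, and all 5 were covered for at least 50% by each of the other lists, against 47.0% of all domains. Ends of other coding genes lay in 4 of these 5 domains, which therefore cannot be assigned to the listed gene alone.

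The lists of later genes had the lowest shares of the 10 lists, with intervals that include the 17.4% of all genes. Of 50 transcription factors of later patterning, 5 had an end in a domain (10%, interval 4.35 to 21.4), and 46 (92%) had one in some control H3K4me3 peak, against 68.7% of all coding genes. These were Hoxb1, Pax3, Foxd3, Tbx1 and Pax6, the last 2 named after their values had been seen. Mutant H3K4me3 covered at least 85% of each of the 5 domains and its widest peak there was over 10 kb in all 5. Over all domains the median cover was 84.5%, and 62.0% had such a wide mutant peak. Control H3K27ac covered 54.3% at Hoxb1, 2.38% at Pax3, 54.0% at Foxd3, 6.68% at Tbx1 and 0% at Pax6. The median of 6.68% stood below the 89.7% of all domains, with no test over 5 domains. Mutant H3K27ac covered 36.9%, 14.0%, 20.9%, 40.5% and 0% in the same order. Among 38 genes of differentiated tissues 3 had an end in a domain (7.89%, interval 2.72 to 20.8), and 13 (34.2%) had one in some control H3K4me3 peak. The 3 were Actn2, Cd4 and Ckm, with control H3K27ac over 35.9%, 32.7% and 6.52% and mutant H3K27ac over 27.1%, 38.3% and 62.4%. Mutant H3K27ac thus covered less than control at Actn2 and more at Cd4 and Ckm. Each of these domains overlapped only one end of its gene, and 2 of the 3 held ends of other coding genes.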

How the data were processed

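The data were 4 deposited peak lists of 3 columns, chromosome, start and end, 1 for each immunoprecipitation group of 2 libraries. Positions are those the authors deposited; no score, fold or p-value accompanies them. The submitters' processing notes name CASAVA, Trimmomatic, Bowtie2, SAMtools, Picard, MACS2 and deepTools and the builds mm10 and GRCm38. The peak threshold and whether replicates were pooled are not given in the sources used here. Positions were read as 0-based BED intervals and are printed 1-based. Domains were entries of the control H3K4me3 list on chromosomes 1 to 19 with end minus start over 10 kb. Covered bases, overlaps of at least 1 bp and gene ends were counted with Python 3.11.15, numpy 2.4.6 and pandas 2.3.3, checked on 1000 simulated intervals. The length of a chromosome was its largest position in the lists or the gene table, 2461 Mb in all. Genes came from RefSeq on GRCm38.p6, which gives gene ends without strand. Start sites and promoters came from a RefSeq promoter table that held 79.6% of the coding genes; genes without an entry were left out of counts of starts. Gene lists held 400 genes in 10 lists. All were found, 2 by a synonym, and 7 on chromosome X were left out.

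Named were the 5 widest domains, the widest 3 of the described classes, the domains with the most genes, and for each gene list the 3 genes in the widest domains; some of them are not reported here. The domains and the gene lists were chosen with earlier results of these data known. Wilson intervals (95%) cover counting error only, and neighbouring peaks are not independent. No p-value was computed, since each group has 1 list.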

Additional observations from a re-analysis of the deposited data

How the results depend on the processing

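No paired analysis was possible because both libraries of a group stand behind 1 peak list, and leaving out a replicate was not possible for the same reason. The planned stricter peak threshold was not applied, as the lists carry no scores. Of the alternative values for the main results, 32 stayed within 1.5 times (counts) or the Wilson interval (shares) of the reported value and 17 did not.

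Changing the width limit changed the number of domains by construction, to 13888 above 5 kb, 1565 above 15 kb and 745 above 20 kb. The covered part moved with it. Above 5 kb it was 70.6% for mutant H3K4me3, 68.1% for control H3K27ac and 49.2% for mutant H3K27ac, and above 20 kb 81.4%, 87.7% and 61.3%. Domains with a coding gene end numbered 6115 above 5 kb and 625 above 20 kb. Joining peaks less than 1 kb apart in every list gave 75.9% for control H3K27ac, 167 domains without mutant H3K4me3 and 107 that had H3K27ac in mutant and little in control; there were then 5201 domains. The last count was 20 with limits of 20% in control and 80% in mutant. Domains covered by mutant H3K27ac numbered 984 at a minimum of 80% and 3778 at 1 bp. Above 5 kb, above 20 kb and after joining, mutant H3K27ac covered less of the domains than control H3K27ac. With domains over 20 kb, 12 of 43 ribosomal protein genes had an end in one, against 5.22% of all coding genes, and with 5 kb 41 of 43 against 36.3%. The 2-cell count was 2 and 22 of 34 in these settings.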

Other observations

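Among noncoding genes, those for tRNAs had the highest share with an end in a domain. Of 391 tRNA genes 139 (35.5%) did so, against 17.4% of coding genes, but they shared 52 domains, with up to 10 genes in 1 domain and 46 of the 139 genes on chromosome 13. In these 52 domains the median covered part was 86.4% for mutant H3K4me3, 80.7% for control H3K27ac and 54.8% for mutant H3K27ac, and the H3K27ac bases were fewer in mutant in 30 of 52, against 75.8% of all domains. The shares of snoRNA, miRNA and lncRNA genes were 8.48%, 9.24% and 7.13%. The tRNA genes are near-identical copies in part, and the mapping of reads to each copy was not tested.

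Domains followed the density of coding genes along the chromosomes, with 8.58 domains per 10 Mb on chromosome 14 and 39.9 on chromosome 11. Spearman's rho over the 19 chromosomes was 0.81, given as a description of chromosomes that share the same libraries. Chromosome 11 stood highest also per gene, with 30.3 domains per 100 coding genes against a median of 20.8. The part of domain bases covered ranged over the chromosomes from 68.9% to 83.7% for mutant H3K4me3, from 66.3% to 84.4% for control H3K27ac and from 47.2% to 60.0% for mutant H3K27ac. On each of the 19 chromosomes mutant H3K27ac covered less than control H3K27ac. The median gap between neighbouring domains was 63.0 kb, and 1391 of 4070 (34.2%) had another domain within 10 kb.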
